A study of Mus musculus with 2 samples.

Results

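The inflammatory CC chemokines described here were 9 genes, Ccl2, Ccl7, Ccl8, Ccl12, Ccl3, Ccl4, Ccl6, Ccl9 and Ccl24, chosen by symbol out of 27998 genes listed in both count matrices. Rows were taken by symbol, but the list of symbols was drawn up with earlier results of these data known. They were followed across cell types of a mouse malignant pleural effusion, a tumour-driven build-up of fluid around the lung. Mice had received 150000 LLC cells (a Lewis lung carcinoma line) in 100 µl PBS into the pleural cavity under isoflurane, and the fluid was drawn on day 10. Live CD45+ CD11b+ cells (leukocytes, mostly myeloid) were sorted and profiled by droplet 3' end RNA sequencing in 2 libraries. Both libraries belong to 1 group of tumour-injected animals, and no source used here gives strain, age or sex. No tumour-free sample was part of the group, so every comparison lies between cell types of the same fluid. No label states whether each library had its own animals or how many were pooled. The p-values therefore measure only how far differences between cell types vary between these libraries, a spread that may be technical.

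CC chemokines are small secreted proteins that draw leukocytes along gradients through G protein-coupled receptors. Ccl2, Ccl7 and Ccl12 are monocyte chemoattractants and act largely through Ccr2, the receptor that lets monocytes leave the bone marrow. Ccl8 is encoded beside them. Ccl3, Ccl6 and Ccl9 bind Ccr1, Ccl4 is a close relative of Ccl3, and Ccl24 (eotaxin-2) draws eosinophils through Ccr3. Macrophages and monocytes are known sources of most of them, and neutrophils can release Ccl3 and Ccl4 when activated.

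Of the 9 genes, 8 lie on mouse chromosome 11 in 2 groups of neighbours (GRCm38, GENCODE vM21 annotation). Ccl2 (chr11:82035571-82037453), Ccl7 (chr11:82045712-82047525), Ccl12 (chr11:82101845-82103400) and Ccl8 (chr11:82115185-82116799) follow each other on the plus strand within 81.2 kb. Ccl9 (chr11:83572919-83578636), Ccl6 (chr11:83587882-83593087) and Ccl3 (chr11:83647844-83649355) on the minus strand and Ccl4 (chr11:83662584-83664683) on the plus strand span 91.8 kb, and 1.46 Mb separates the groups. Ccl24 lies apart, on the minus strand of chromosome 5 (chr5:135569937-135573049). All 9 are protein-coding, and the span of each includes exons, introns and UTRs. Ccl2 overlaps Gm17268 on the other strand, which held 0 UMIs in these libraries, and Ccl6 overlaps E230016K23Rik on the other strand, not analysed here. Whether the authors' counting used strand is not given in the sources used here.

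The RefSeq promoter table (build GRCm38.p6) matched 5 of the 9 genes. Their 250 bases before the start are shown because these genes fall into the patterns of level described below: Ccl12 and Ccl8 from the first group, Ccl9 and Ccl6, which were abundant together, and Ccl3, which was called higher in neutrophils than in monocytes. Each is written 5′ to 3′ along its own gene, and capitals mark matches to any of 6 searched motifs on either strand. The windows are Ccl12 chr11:82101595-82101844 and Ccl8 chr11:82114935-82115184 on the plus strand, and Ccl9 chr11:83578637-83578886, Ccl6 chr11:83593088-83593337 and Ccl3 chr11:83649379-83649628 on the minus strand.
Ccl12: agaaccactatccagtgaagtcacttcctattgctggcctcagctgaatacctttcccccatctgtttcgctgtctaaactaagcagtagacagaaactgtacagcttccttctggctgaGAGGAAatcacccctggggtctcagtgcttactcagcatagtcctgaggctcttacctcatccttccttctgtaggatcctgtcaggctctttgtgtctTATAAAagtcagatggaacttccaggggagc
Ccl8: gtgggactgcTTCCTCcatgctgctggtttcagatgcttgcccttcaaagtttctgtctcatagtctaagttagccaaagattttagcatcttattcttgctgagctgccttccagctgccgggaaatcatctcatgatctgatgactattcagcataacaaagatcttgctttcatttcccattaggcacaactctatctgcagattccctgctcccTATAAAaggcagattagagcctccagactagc
Ccl9: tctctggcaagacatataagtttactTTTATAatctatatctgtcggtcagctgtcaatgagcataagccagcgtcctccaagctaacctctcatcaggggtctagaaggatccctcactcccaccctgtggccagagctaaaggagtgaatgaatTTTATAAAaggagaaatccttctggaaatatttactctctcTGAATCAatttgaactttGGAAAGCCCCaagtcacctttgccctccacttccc
Ccl6: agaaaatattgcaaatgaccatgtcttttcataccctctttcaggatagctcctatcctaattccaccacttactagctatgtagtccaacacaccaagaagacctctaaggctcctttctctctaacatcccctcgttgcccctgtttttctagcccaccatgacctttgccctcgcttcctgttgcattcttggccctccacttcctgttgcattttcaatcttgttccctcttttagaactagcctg
Ccl3: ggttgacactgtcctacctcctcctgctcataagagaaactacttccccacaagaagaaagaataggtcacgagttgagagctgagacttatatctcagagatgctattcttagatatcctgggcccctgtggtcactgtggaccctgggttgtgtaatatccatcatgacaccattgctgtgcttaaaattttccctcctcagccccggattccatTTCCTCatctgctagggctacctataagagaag
The motifs searched were TATAAA (the TATA box), a NF-kB site form, TGANTCA (AP-1), TTGCNNAA (C/EBP), GAGGAA (PU.1) and an interferon-stimulated response element core. Positions count back from the RefSeq start, with -1 as the last base before it. For Ccl3 that start lies upstream of the GENCODE one (window from 83649379, gene span to 83649355), while the other windows border their gene spans. TATAAA stood at -31 in Ccl12 and -32 in Ccl8, at the usual distance of a TATA box, and was found in 12.4% of 32851 promoter windows of this length. Ccl9 held it at -92 and, on the other strand, at -94 (overlapping) and -224. Ccl9 alone of the 5 held the NF-kB form, read on its strand as GGAAAGCCCC, at -35 (1.41% of windows), and the AP-1 form, at -53 (6.75% of windows). GAGGAA stood at -130 in Ccl12, -240 in Ccl8 and -33 in Ccl3 (23.3% of windows). Neither the C/EBP letters (9.56% of windows) nor the interferon core (2.98%) occurred in the 5 windows, and the Ccl6 window matched none of the 6. A match describes letters only; binding was not measured.

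Cell types were set by marker genes, none of which is a chemokine described here, and each name below stands for such a gate. Library 1 held 1141 barcodes and 11543829 gene UMIs (molecules counted; median 9894 per barcode) and library 2 held 2908 and 20322996 (median 1954); the 9 chemokines made up 1.87% and 1.31% of all UMIs. After 25 and 61 barcodes with few genes or much mitochondrial RNA were dropped, 1116 and 2847 cells were kept, and 1008 and 2545 of them met a single gate (library 1 first throughout). Neutrophils (S100a8, Retnlg and others) numbered 80 and 1503 cells, Ly6c2 monocytes with little C1q 145 and 316, and Vcan F13a1 cells without Ly6c2 and with little C1q 255 and 98. Vcan F13a1 C1q macrophages, which carry both monocyte and macrophage RNA, numbered 123 and 377, and Folr2 Cd163 C1q macrophages 206 and 132. Cavity-resident macrophages (Prg4, Alox15, Gata6 and others) numbered 27 and 22, dendritic cells 142 and 42, B cells 27 and 13, and T and NK cells 3 and 42. All 9 monocyte markers listed were detected in the Ly6c2 gate, where they summed to 12185 and 14512 CPM, a gene's UMIs per 1e6 gene UMIs of the gate. Detection does not single out this gate, as all 9 were also found in others, such as Vcan F13a1 C1q macrophages (7057 and 10877 CPM). Vcan F13a1 low-C1q cells reached 6954 and 13526 CPM, and Ly6c2, one of the 9, defined the gate. Depth differed between gates: the median was 2180 and 1313 UMIs in neutrophils, against 8490 and 10169 in Ly6c2 monocytes and 5509 and 5395 in B cells. The libraries shared 4 barcodes. Library 2 also carried counts of 2 antibody tags named BC2 and BC3; no label says what they mark, and they split by cell type: 1472 of its 1503 neutrophils lay on the BC3 side and 285 of its 316 monocytes on the BC2 side.

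Ccl2 was a product of nearly the whole monocyte and macrophage lineage of the fluid. Its level was 1819 and 1471 CPM in Ly6c2 monocytes, 1598 and 1882 in Vcan F13a1 low-C1q cells, 1397 and 1579 in Vcan F13a1 C1q macrophages and 1462 and 1684 in Folr2 Cd163 C1q macrophages. The means of these 4 gates lay between 1488 ± 129 and 1740 ± 201 CPM (SD, n = 2 libraries), and the libraries did not share 1 order of the 4. Cavity-resident macrophages (34.7 and 392 CPM), neutrophils (102 and 170) and dendritic cells (37 and 173) lay below all 4 in both libraries. B cells, which should lack Ccl2, held 3 and 0 UMIs (21.6 and 0 CPM; a count of 0 in library 2 allows up to 42.8 CPM). A Ccl2 UMI was found in 83.4% and 84.8% of Ly6c2 monocytes, 91.7% and 96.2% of Folr2 Cd163 C1q macrophages, 10% and 11.4% of neutrophils and 11.1% and 0% of B cells. With cells of at least 1000 UMIs thinned to 1000, these shares were 50.3% and 52.1%, 47.1% and 64.4%, 5% and 9.19%, and 0% and 0%. Cells with fewer UMIs were left out of all thinned shares, here and below. In library 2 these included 350 of 1503 neutrophils and 3 of 316 monocytes. Intervals and floors cover counting error only, here and below.

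Of the 4 monocyte and macrophage gates above, Folr2 Cd163 C1q macrophages stood highest and Ly6c2 monocytes lowest in Ccl7 and Ccl12 in both libraries. Cavity-resident macrophages, neutrophils and dendritic cells lay below these monocytes for both genes in both libraries. Ccl8 was rare. Ccl7 stood at 1033 and 978 CPM in Folr2 Cd163 C1q macrophages, 437 and 582 in Vcan F13a1 C1q macrophages, 594 and 616 in Vcan F13a1 low-C1q cells and 377 and 352 in Ly6c2 monocytes. The low-C1q gate was the higher of the 2 Vcan F13a1 gates in both libraries (means of 605 ± 15.6 and 509 ± 102 CPM), a difference that was not tested. Ccl12 stood at 323 and 816 CPM in Folr2 Cd163 C1q macrophages, 210 and 505 in Vcan F13a1 C1q macrophages, 115 and 396 in Vcan F13a1 low-C1q cells and 61.2 and 310 in Ly6c2 monocytes. Within each library Ccl12 kept that order, and library 2 was above library 1 in each of the 4 gates. Ccl8 stood at 53.7 and 237 CPM in Folr2 Cd163 C1q macrophages, 0 and 99.6 in Vcan F13a1 C1q macrophages, 1.96 and 30.6 in Vcan F13a1 low-C1q cells and 0.794 and 4.01 in Ly6c2 monocytes. In library 2, 21 of the 22 Ccl8 UMIs of Vcan F13a1 low-C1q cells were in 1 cell, and without it that gate stood at 1.41 CPM. In Folr2 Cd163 C1q macrophages the most in 1 cell was 44 of 146 and 182 of 566 UMIs. Only 7.77% and 20.5% of Folr2 Cd163 C1q macrophages held a Ccl8 UMI (2.91% and 6.82% at 1000 UMIs), against 3.7% and 0% of B cells, where it rested on 1 and 0 UMIs.

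**Figure D1:**
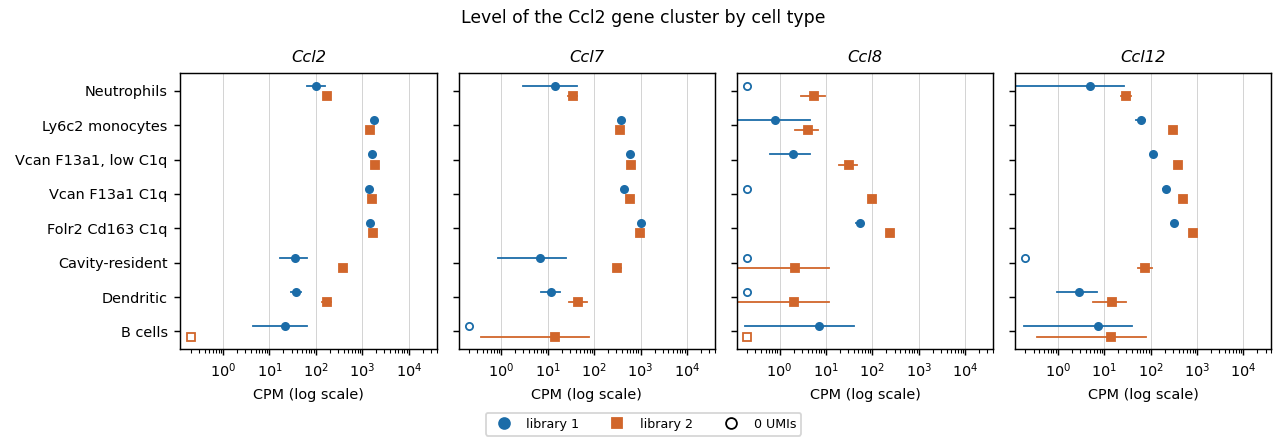
Level of Ccl2, Ccl7, Ccl8 and Ccl12 by marker-gated cell type, in CPM on a log axis. Circles are library 1 and squares library 2, lines are exact 95% Poisson intervals, and open symbols mark 0 UMIs (drawn at the left edge). Ccl2 means lie between 1488 and 1740 CPM in the 4 monocyte and macrophage gates, while Ccl8 reaches 53.7 and 237 CPM in Folr2 Cd163 C1q macrophages.

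The first comparison asked how Folr2 Cd163 C1q macrophages, a gate with scavenger receptor and complement RNA, differ from Ly6c2 monocytes. Ccl8 and Ccl12 rose, and none of the 9 fell; of the 9084 genes tested, 3.78% were called in either direction, 1.79% higher and 1.98% lower. Ccl8 went from 1 and 14 UMIs in monocytes to 146 and 566, a ratio of 67.6 in library 1 (interval 11.9 to 2689, resting on 1 monocyte UMI) and 59.1 in library 2 (34.9 to 109). Its log2 fold change was 6.15 ± 0.57 (SE; edgeR adjusted p = 1.72e-06). Ccl12 was 5.29-fold (4.19 to 6.76) higher in library 1 and 2.63-fold (2.44 to 2.84) in library 2, with a log2 fold change of 1.80 ± 0.27 (adjusted p = 0.000616). Both groups of the comparison were drawn from each library, and both genes were higher in each. Ccl7 had a like ratio in both libraries, 2.74 and 2.78, and did not pass (1.45 ± 0.44, adjusted p = 0.0821). Ccl24 (0.84 ± 0.36), Ccl6 (0.60 ± 0.22), Ccl4 (0.54 ± 0.54), Ccl9 (0.38 ± 0.27), Ccl3 (0.01 ± 0.22) and Ccl2 (-0.14 ± 0.43) did not pass either. The median of the 9 was 0.60 against -0.01 for all genes tested. Without the library as a block neither call remained. Platelet markers moved with this contrast: of 5 listed, 2 were detected, and their sum was 19528 and 6305 CPM in Folr2 Cd163 C1q macrophages against 4965 and 1437 in monocytes, while Itga2b, Gp9 and Gp1bb were at 0 in both gates; their part in the result was not tested.

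Vcan F13a1 C1q macrophages were then set against the same Ly6c2 monocytes, which the comparisons of this gate, the Folr2 Cd163 gate, dendritic cells and neutrophils all share. Ccl8 alone was called (log2 fold change 4.30 ± 0.59, adjusted p = 0.00129), against 0.055% of genes called in either direction, 0.044% higher and 0.011% lower. The call rested on library 2, with 632 UMIs against 14 in monocytes; library 1 held 0 against 1. In library 2, 390 of the 632 UMIs were in 1 cell of 12897 UMIs, and without it the level was 38.2 in place of 99.6 CPM. With that cell left out the fitted change was 3.02 (adjusted p = 0.0194), and library 1 by itself gave -1.64 on the log2 scale. Neither DESeq2 nor edgeR without the library as a block called it. Of 39 cells with Ccl8 in library 2, 25 held 1 UMI. Ccl12, at 3.43 and 1.63 times the monocyte level, did not pass (1.13 ± 0.27, adjusted p = 0.229), and the other 7 lay between -0.22 and 0.81.

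Cavity-resident macrophages, the Gata6 lineage that lives in serous cavities before inflammation, held less of 6 of the 9 chemokines than Folr2 Cd163 C1q macrophages. Set against Folr2 Cd163 C1q macrophages, 6 of the 9 fell and none rose, where 12.7% of genes were called in either direction (7.64% higher, 5.05% lower). Ccl8 fell by 7.23 on the log2 scale (SE 0.99, adjusted p = 3.12e-05), with 0 and 1 UMIs in the resident gate. Ccl12 fell by 3.98 (SE 0.38, adjusted p = 2.79e-07), from 323 and 816 CPM to 0 and 75.5. Ccl2 fell (-3.00, SE 0.50, adjusted p = 0.000238) and so did Ccl7 (-2.69, SE 0.51, adjusted p = 0.000966). Ccl6 fell (-2.30, SE 0.23, adjusted p = 4.35e-07), as did Ccl9 (-2.65, SE 0.29, adjusted p = 1.93e-06). Ccl6 still stood at 2550 and 2819 CPM and Ccl9 at 680 and 1372 in resident macrophages, against 253 and 157 and 101 and 71.3 in B cells. Ccl24 stood at 170 and 218 CPM in resident and 244 and 129 in Folr2 Cd163 C1q macrophages (log2 fold change 0.20 ± 0.40, adjusted p = 0.826), and the libraries had opposite signs. Ccl3 (-0.89 ± 0.30) and Ccl4 (-2.01 ± 0.78) did not pass. Without the library as a block, 2 of the 6 calls remained.

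The libraries differed in the resident gate, and single cells held the difference. In library 2, 6 of the 22 resident cells carried monocyte RNA, with Vcan, F13a1 and Ccr2 at 11.8 to 17.4 UMIs per 10000, while the other 16 lay at 0.0 to 2.2 and the 27 cells of library 1 at 0.0 to 4.3. Those 6 cells held 167 of the gate's 187 Ccl2 UMIs, all 151 of Ccl7, 34 of 36 of Ccl12 and 29 of 32 of Ccl4. They also stood higher in Ccl9 (2260 CPM against 798 in the other 16) and Ccl6 (3713 against 2241). Their median depth was 34859 UMIs, against 18815 in the other 16. In the 16 cells Ccl2 was 69.1 CPM, Ccl7 was at 0 UMIs and Ccl12 was 6.91 CPM, near the 34.7, 6.94 and 0 CPM of library 1. Ccl24 behaved otherwise, at 128 CPM in the 6 cells and 276 in the 16. With those 6 cells left out, and neutrophils and dendritic cells with a C1q UMI left out too, the fitted changes were -4.95 for Ccl2 and -8.17 for Ccl7. Whether the 6 droplets held 1 cell each was not tested.

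Dendritic cells (Cd209a, H2-DMb2, Flt3 and others), the antigen-presenting cells of the fluid, carried less of most of these chemokines than monocytes. Against Ly6c2 monocytes 7 of 9 fell and none rose, where 21% of genes were called in either direction (11.4% higher, 9.53% lower). The log2 fold changes were -5.25 for Ccl24 (SE 0.76, adjusted p = 3.69e-05), -4.39 for Ccl12 (SE 0.46, adjusted p = 6.73e-07) and -4.28 for Ccl2 (SE 0.52, adjusted p = 4.95e-06). Ccl7 (-3.96), Ccl6 (-2.79), Ccl3 (-2.56) and Ccl9 (-2.20) fell too. Ccl4 did not pass (-2.10 ± 0.75, adjusted p = 0.0533), and Ccl8, with 0 and 1 UMIs against 1 and 14 in monocytes, did not pass (adjusted p = 0.687). Ccl6 (1060 and 1278 CPM) and Ccl9 (1171 and 874 CPM) still exceeded the B cell levels, 253 and 157 CPM for Ccl6 and 101 and 71.3 for Ccl9. In library 2, 1 dendritic cell of 48219 UMIs, with 24 C1q and 86 Vcan, F13a1 and Ccr2 UMIs, held 286 of the gate's 622 Ccl6, 106 of 425 Ccl9, 50 of 84 Ccl2 and 16 of 22 Ccl7 UMIs. Without it the gate stood at 767 CPM of Ccl6, 728 of Ccl9, 77.6 of Ccl2 and 13.7 of Ccl7. The cell with most Ccl6 in library 1 held 185 of 1807 UMIs, and without it Ccl6 stood at 959 CPM. With that cell left out of each library the same 7 were called, with Ccl2 at -4.95 and Ccl6 at -3.25, and Ccl4 passed as well (-2.51, adjusted p = 0.0273). Whether the droplet of library 2 held 1 cell was not tested. Of 11 other CC chemokines listed, 3 could be tested and 2 rose in dendritic cells: Ccl5, a chemoattractant of T cells and monocytes, from 6.36 and 16.3 to 386 and 1229 CPM (log2 fold change 6.81 ± 0.65, adjusted p = 2.7e-07), and Ccl22, a ligand of Ccr4, from 0 and 0 to 19.4 and 24.7 CPM (adjusted p = 5.69e-05). Without the library as a block Ccl5 was not called. Ccl22 stands on the dendritic marker list but was not used to gate.

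Ccl6 and Ccl9 were the abundant pair of the second gene group. Ccl6 stood at 16590 and 10414 CPM in Folr2 Cd163 C1q macrophages, 14108 and 9677 in Vcan F13a1 low-C1q cells, 12512 and 7891 in Vcan F13a1 C1q macrophages and 10985 and 6555 in Ly6c2 monocytes. Ccl9 stood at 7563 and 5622, 7070 and 5111, 7040 and 4756, and 5519 and 4412 CPM in the same order. Each library gave that order for both genes, so every difference between neighbouring gates had the same sign in both, while library 1 was the higher in each gate. With 2 libraries a single such difference cannot be tested by itself, and the fitted contrasts of the Folr2 Cd163 and Vcan F13a1 C1q gates with monocytes did not pass for either gene. Together the pair made up 2.42% and 1.6% of all UMIs in Folr2 Cd163 C1q macrophages and 0.0354% and 0.0228% in B cells. Ccl6 was found in every Folr2 Cd163 C1q macrophage of both libraries (100% and 100%), also at 1000 UMIs per cell, where B cells stood at 22.2% and 15.4%.

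Ccl24 was low and unevenly spread. It stood at 310 and 95.9 CPM in Vcan F13a1 low-C1q cells, 322 and 84.6 in Vcan F13a1 C1q macrophages, 244 and 129 in Folr2 Cd163 C1q macrophages, 170 and 218 in resident macrophages and 81 and 97.6 in Ly6c2 monocytes. Library 1 was the higher in the first 3 of these and the lower in the last 2, so the libraries gave these gates different orders. Neutrophils (9.68 and 8.97 CPM) and dendritic cells (2.35 and 4.11) lay below them in both libraries, as did B cells with 2 and 0 UMIs. Eosinophils are the cells Ccl24 is known to draw, and 5 listed eosinophil markers summed to at most 32 CPM in any gate of the fit.

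**Figure D2:**
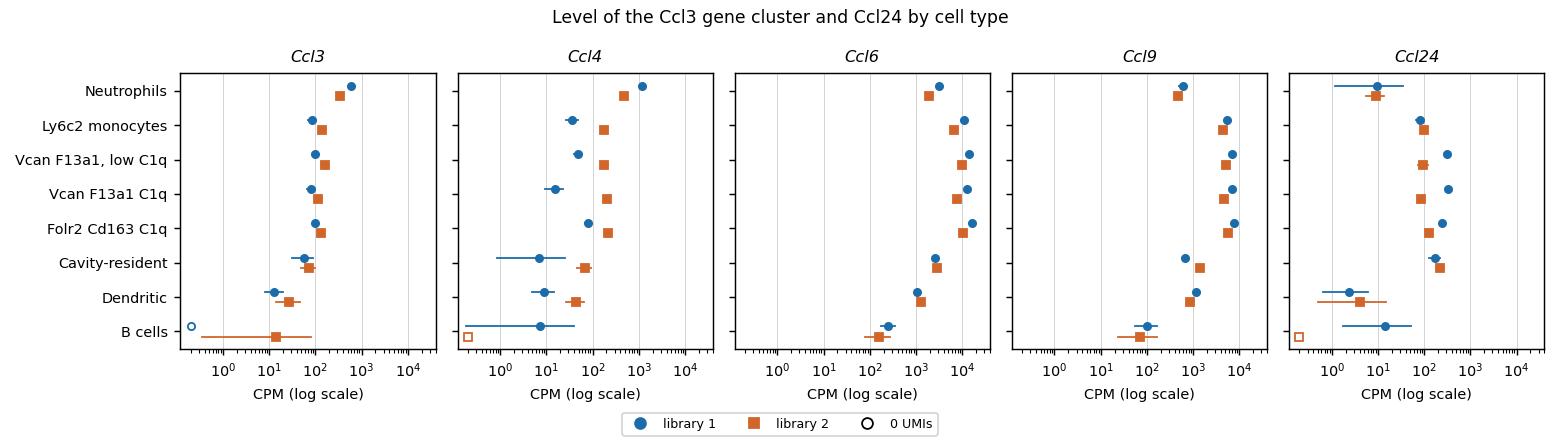
Level of Ccl3, Ccl4, Ccl6, Ccl9 and Ccl24 by marker-gated cell type, in CPM on a log axis, with symbols and lines as in the plot of Ccl2, Ccl7, Ccl8 and Ccl12. Neutrophils stand at 600 and 343 CPM of Ccl3 and 1147 and 472 of Ccl4, and 1 cell holds most of both in library 1; their Ccl6 and Ccl9 are below the monocyte levels.

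In neutrophils Ccl3 and Ccl4 rose and most of the others fell. Against Ly6c2 monocytes 2 of 9 rose and 6 fell, where 52.5% of all genes were called in either direction (26.1% higher, 26.5% lower). Ccl3 was 600 and 343 CPM in neutrophils and 83.4 and 140 in monocytes (log2 fold change 2.52 ± 0.24, adjusted p = 6.17e-08). Ccl4 was 1147 and 472 CPM against 35.7 and 181 (3.87 ± 0.60, adjusted p = 2.74e-05). The 6 that fell were Ccl2 (-3.09 ± 0.51), Ccl7 (-3.12 ± 0.60), Ccl12 (-2.53 ± 0.38), Ccl9 (-2.69 ± 0.29), Ccl24 (-2.48 ± 0.59) and Ccl6 (-1.26 ± 0.22), with adjusted p from 4.25e-07 to 0.00171. Ccl8 was at 0 and 13 UMIs and did not pass (adjusted p = 0.368). The fit scales neutrophils by TMM factors of 0.792 and 0.67, which moves their fold changes up. With total counts alone the same 8 were called, the median of all genes went from -0.11 to -0.74, and 1418 genes were called higher and 4161 lower in place of 2368 and 2405.

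Among the monocyte and macrophage gates the libraries gave Ccl3 different orders: it stood at 83.4 and 140 CPM in Ly6c2 monocytes, 97.8 and 158 in Vcan F13a1 low-C1q cells, 81.6 and 116 in Vcan F13a1 C1q macrophages and 99 and 131 in Folr2 Cd163 C1q macrophages. Ccl4 stood between 15.2 and 79.5 CPM in these gates in library 1 and between 179 and 219 in library 2, so the gates of library 2 all lay above those of library 1. Resident macrophages held 55.5 and 71.3 CPM of Ccl3 and 6.94 and 67.1 of Ccl4, and dendritic cells 12.9 and 26.7 and 8.8 and 43.2. In library 2 the 6 resident cells with monocyte RNA held 29 of the 32 Ccl4 UMIs, and the other 16 stood at 10.4 CPM. B cells held 0 and 1 UMIs of Ccl3 and 1 and 0 of Ccl4.

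Most Ccl3 and Ccl4 UMIs of neutrophils lay in 1 cell in library 1, but not in library 2. In library 1, 1 neutrophil of 3722 UMIs held 109 of 124 Ccl3 and 213 of 237 Ccl4 UMIs. Without it the gate stood at 73.9 CPM of Ccl3, below the monocytes' 83.4, and 118 of Ccl4, above their 35.7. In library 2 no neutrophil held more than 25 Ccl3 or 31 Ccl4 UMIs, and without 1 of 2 cells tied for the most Ccl3 and Ccl4 UMIs together (13 and 31) the levels were 340 and 461 CPM. Left without that cell in each library, the fit gave 1.60 for Ccl3 and 2.05 for Ccl4, and both were still called. The Ccl3 excess over monocytes in CPM thus lay in library 2 and in 1 cell of library 1. In library 2, 218 of 1503 neutrophils held Ccl3, 274 held Ccl4 and 87 both. Thinned to 1000 UMIs per cell, 6.25% and 11.9% of neutrophils held Ccl3 against 6.9% and 12.5% of monocytes, and 13.8% and 15.6% held Ccl4 against 3.45% and 16.9%. For library 2 these shares cover the 1153 neutrophils with at least 1000 UMIs and leave out 350. The tenth of neutrophils highest in Ccl3 held 97.6% and 91.5% of its UMIs, compared with 64.8% and 57.3% in monocytes. These shares were not taken at equal depth. A Ccl3 UMI was found in only 13.8% and 14.5% of neutrophils, against 27.6% and 43.7% of monocytes. Sparse counts alone raise such a share, so it does not show that neutrophils are the more uneven.

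**Figure D3:**
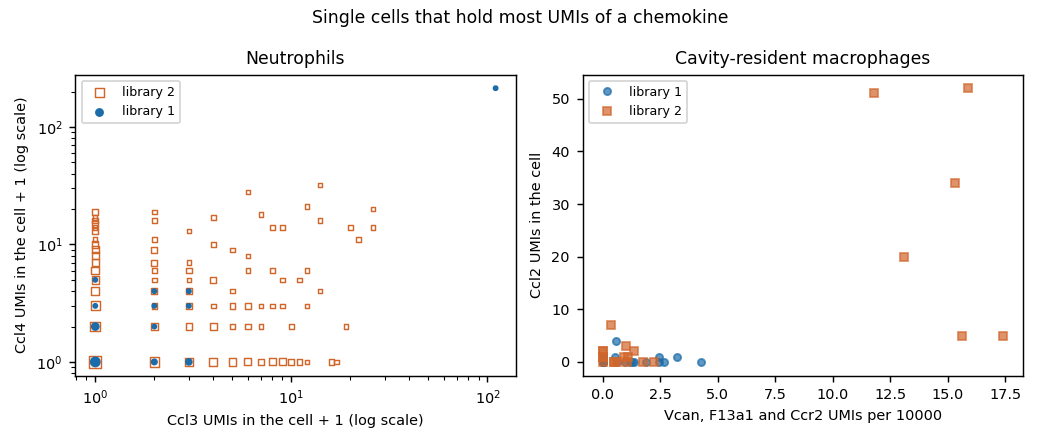
Left, Ccl3 against Ccl4 UMIs in each neutrophil (plus 1, log axes; symbol size grows with the number of cells at that point). Right, Ccl2 UMIs of each cavity-resident macrophage against its Vcan, F13a1 and Ccr2 UMIs per 10000. In the plots 1 neutrophil of library 1 lies alone at 109 and 213 UMIs, and 6 resident cells of library 2 lie alone at 11.8 to 17.4 UMIs per 10000 of monocyte RNA.

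Neutrophil Ccl6 stood above the B cell level, at 3203 and 1929 CPM against 253 and 157. A UMI was found in 90% and 72.4% of neutrophils and 77.8% and 53.8% of B cells. Neutrophils had fewer UMIs per cell (median 2180 and 1313, against 5509 and 5395 in B cells), so a stray UMI weighs more in their CPM. Ccl2 in neutrophils was a matter of few cells: of 398 UMIs in library 2, 188 were in 12 cells, and the 31 neutrophils on the BC2 side held 151 (1002 CPM, against 113 in the 1472 on the BC3 side). Tag side and cell type can be told apart in library 2 only through these few cells. On the BC3 side alone, with 31 monocytes left in library 2, the same 8 genes were called, with Ccl3 at 2.87 and Ccl4 at 3.98. There 2779 of 6719 genes tested were called. On the BC2 side alone, with 31 neutrophils left, 4 were called (Ccl7, Ccl9, Ccl3 and Ccl4), where 588 of 8647 genes tested were called. Over all 9084 genes tested, 26.1% were called higher and 26.5% lower in neutrophils. With total counts alone 1418 were higher and 4161 lower, and without the library as a block 1581 and 1709. Of 16 regulators of inflammatory transcription and mRNA decay, 12 were called higher in neutrophils and 1, Irf5, lower. Their median log2 fold change was 1.11 against -0.11 for all genes. With total counts alone 8 were called higher and Irf5 lower (median 0.54 against -0.74), and without the library as a block 5 and Irf5. Nfkbiz, an inducible NF-kB cofactor, was called under all 3 settings and went from 14.3 and 46.9 to 67.7 and 217 CPM (2.86 ± 0.25). Nfkb1 and Rela, NF-kB subunits, were called in neither of those other settings, and their CPM were close: 43.5 and 49.1 in neutrophils against 50 and 39.5 for Nfkb1, and 53.2 and 44.4 against 48.5 and 44.9 for Rela. Of 11 tested immediate early and dissociation genes, 9 were called higher and Atf3 lower; with total counts alone it was 8 and 2, and without the block 7 and 0. Egr1 went from 9.53 and 49.2 to 184 and 826 CPM (4.72 ± 0.24) and Jun from 425 and 458 to 629 and 1032 (1.44 ± 0.20). These genes react to tissue handling as well as to signals, and their part in the Ccl3 and Ccl4 result was not tested.

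**Figure D4:**
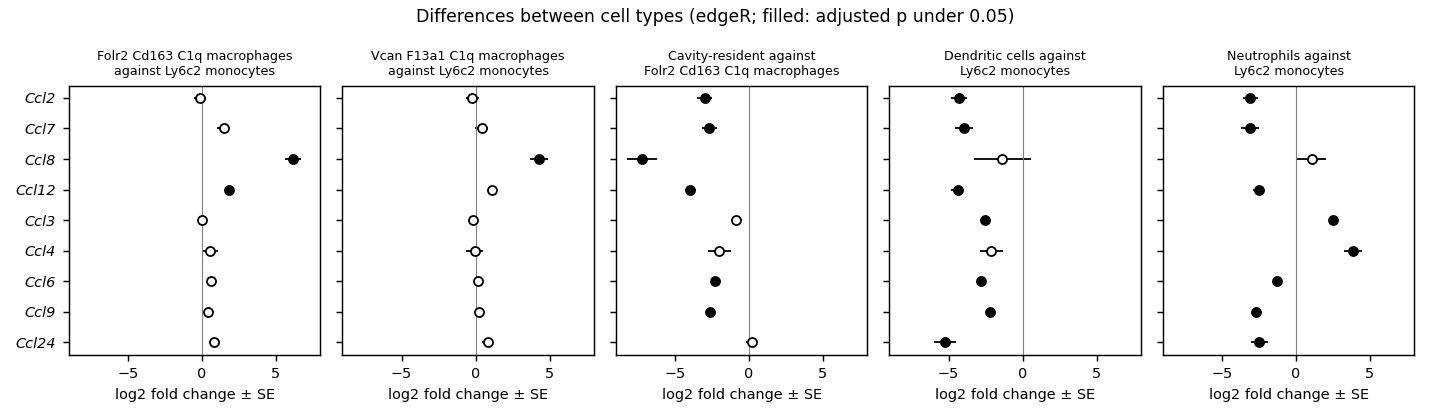
Log2 fold change of each chemokine in the 5 comparisons, with its standard error; filled symbols passed the adjusted p of 0.05. The 4 comparisons with Ly6c2 monocytes share those cells. Ccl8 and Ccl12 are filled to the right in Folr2 Cd163 C1q macrophages, and Ccl3 and Ccl4 are filled to the right in neutrophils.

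Receptors were read in the same fits: Ccr1, Ccr2 and Ccrl2, a receptor that binds chemerin without signalling. In Folr2 Cd163 C1q macrophages Ccr1 (-0.81 ± 0.23, adjusted p = 0.0487) and Ccrl2 (-1.17 ± 0.32, adjusted p = 0.0483) fell relative to monocytes, and neither was called without the library as a block. In resident macrophages Ccr2 fell (-2.65, from 751 and 882 to 24.3 and 224 CPM) and Ccrl2 rose (1.42, not called without the block), both relative to Folr2 Cd163 C1q macrophages. Neutrophils had more Ccr1 (1205 and 1868 CPM against 821 and 729) and Ccrl2 (3.27 ± 0.29), and less Ccr2 (-2.54 ± 0.38). In dendritic cells Ccr1 fell by 1.30, and of the 16 regulators Nfkb1 (1.28 ± 0.26), Relb (2.31 ± 0.30), Nfkb2 and Rel rose while Nfkbia, Irf7, Stat6 and Cebpb fell; without the block Relb and Nfkbia alone were called.

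Within a gate some neighbouring chemokines were high in the same cells, given here as a description with cells sharing a library. Ccl6 and Ccl9 had Spearman correlations of 0.59 to 0.82 over the cells of each monocyte or macrophage gate and library, and 0.02 and 0.03 over neutrophils. Neutrophils hold few Ccl9 UMIs (a UMI in 50% and 31% of cells), so the low value was measured at low counts. Ccl2 and Ccl7 had 0.39 to 0.69 and Ccl7 and Ccl12 0.36 to 0.57 in the monocyte and macrophage gates. Ccl8 had 0.13 and -0.06 with its neighbour Ccl12 in Folr2 Cd163 C1q macrophages, and 0.20 and 0.15 with Ccl7. Only 7.77% and 20.5% of these cells held a Ccl8 UMI, so all its correlations here were measured at low counts. In that gate the 16 and 27 cells with Ccl8 held 1578 and 1443 CPM of Ccl7 against 977 and 832 in the others, but 1187 and 1724 CPM of Ccl2 against 1490 and 1672. Ccl3 and Ccl4 had 0.37 and 0.33. Pairs across the groups did not all lie below pairs within them: Ccl2 with Ccl6 had 0.30 and 0.18 and Ccl7 with Ccl9 0.29 and 0.17, while Ccl2 with Ccl8 had 0.01 and -0.02 and Ccl3 with Ccl6 0.15 and -0.15.

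**Figure D5:**
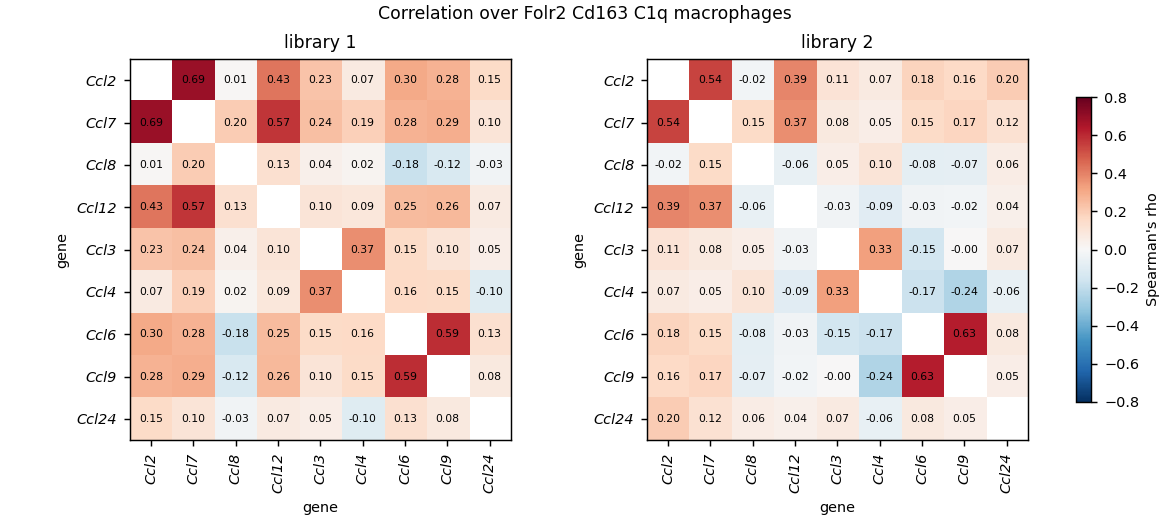
Spearman correlation of UMIs per 10000 between each pair of chemokines over the 206 (library 1) and 132 (library 2) Folr2 Cd163 C1q macrophages; the diagonal is left blank. The darkest squares are Ccl2 with Ccl7 (0.69 and 0.54) and Ccl6 with Ccl9 (0.59 and 0.63). Ccl7 with Ccl12 (0.57 and 0.37) and Ccl2 with Ccl12 (0.43 and 0.39) follow.

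The genes also differed in how evenly cells shared them. In Folr2 Cd163 C1q macrophages the tenth of cells highest in a gene held 19.4% and 20.4% of the UMIs of Ccl6 and 21.2% and 21.4% of Ccl9, where the same cells held 12.4% to 16.8% of all UMIs. For Ccl2 it was 47.1% and 35.3%, for Ccl7 60.2% and 43.6%, for Ccl12 62.5% and 50.5%, and for Ccl8 100% and 95.1%. Sparse genes give a high share by counting alone, which limits the reading for Ccl8, Ccl3 and Ccl4.

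Over 14 points (7 gates in 2 libraries), the level of Ccl2 was most like that of F13a1 (Pearson r of log2 CPM 0.99), Cmtm7 (0.97) and Maf (0.96), among 2586 genes that are not members. The nearest to Ccl7 was Snx6 (0.96), to Ccl12 Rab5c (0.93), and to Ccl8 Agfg1, at only 0.74. Ccl6 was nearest to Apoe (0.97) and Ccl9 to Gas7 (0.97) and Stab1 (0.97). Ccl24 was nearest to Ctsl (0.96). Ccl3 was nearest to Cxcl2 (0.96), a neutrophil-attracting CXC chemokine, and Ccl4 to Zcchc6 (0.92). The points share 2 libraries, Vcan and F13a1 served to gate cells, and with a pseudocount of 1 in place of 10 between 1 and 3 of the 3 nearest genes stayed the same. Among the members themselves Ccl2 and Ccl7 reached 0.96, Ccl6 and Ccl9 0.90, and Ccl3 and Ccl4 0.88. Pairs across the 2 gene groups reached like values, 0.91 for Ccl7 with Ccl9, 0.90 for Ccl2 with Ccl9 and 0.89 for Ccl2 with Ccl6. Pairs within a group were also low: 0.51 for Ccl2 with Ccl8, 0.08 for Ccl4 with Ccl6, -0.07 for Ccl3 with Ccl9 and -0.14 for Ccl4 with Ccl9.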

How the data were processed

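The authors deposited, per library, unscaled UMI counts per gene and cell barcode; the submitters' processing notes name Cell Ranger 3.0.1 and mm10, and the annotation release is not given in the sources used here. Barcodes were kept with at least 300 genes and at most 10% mitochondrial UMIs. Cells were gated on summed marker UMIs per 10000 (neutrophil 200, C1q 10, resident 16, dendritic 6, B 8, T and NK 8, Cd163 with Folr2 2, Vcan with F13a1 3, Ly6c2 1). Droplets that met the gates of 2 lineages (8 and 93 cells) were left out as mixed, 100 and 209 cells met none, and no doublet caller was run. Between 0 and 144 cells of a library lay within 0.8 to 1.25 times any 1 threshold.

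UMIs were summed per library and gate with at least 15 cells in each library (7 gates) and tested in 1 fit with edgeR 4.0.16 (R 4.3.3; TMM, filterByExpr, quasi-likelihood test) with the library as a block, since every gate comes from both libraries. All 9 genes passed the filter, with 9084 genes in all. P-values were Benjamini-Hochberg adjusted over all genes tested, and a call is an adjusted p under 0.05. Standard errors are the absolute log2 fold change over the root of the test's F. CPM divide by the total gene UMIs of a gate, without TMM. Library ratios carry exact conditional 95% intervals, CPM exact Poisson ones; a count of 0 was given a floor of 3 counts. Tested on simulated data for Folr2 Cd163 C1q macrophages against Ly6c2 monocytes (9084 genes), the fit recovered 26 of 100 genes changed 2-fold and 98 of 100 changed 4-fold, with 6 false calls. Apart from the changed genes, the simulation gave every gate and library the same profile. All genes had the same spread, no library shift was added, and changed genes came from above a minimum level. These numbers therefore do not measure how the fit performs on the real counts.

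Named were all 9 genes, called genes of the listed groups, and for each member the genes most like it of those with a mean of at least 50 CPM; where 1 or 2 of 3 are given, they are the first. Ccl8-holding cells, cells with monocyte RNA and single cells with most UMIs of a member were singled out after their values were seen; the alternatives that leave such cells out, the BC3 side and total counts were also chosen after seeing the data. Members and lists were chosen with earlier results of these data known. Alternatives were DESeq2 1.42.0, no low-count filter, no block, mixed cells kept, thresholds raised to 2 times, each tag side, Leiden clusters (leidenalg 0.10.2), each library alone, and total counts without TMM. The B and T and NK gates had too few cells for the fit. Of the listed receptors, some are not reported here.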

Additional observations from a re-analysis of the deposited data

Results flagged for a closer look

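T and NK cells, which entered no comparison, held Ccl3 at 331 CPM and Ccl4 at 646 CPM in library 2, above the B cell levels of 14.3 and 0 CPM there. The gate had 42 cells, of which 33 held Cd3 RNA. In 18 of them Vcan or F13a1 UMIs were also found, and these cells gave 471 CPM of Ccl3 and 882 of Ccl4, while the 24 without gave 61.6 and 189. Library 1 held 3 such cells with 0 UMIs of either gene. The part of monocyte RNA in these levels was not tested.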

How the results depend on the processing

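Of the 24 fold changes called, 0 of 279 values under other settings reversed and 266 were still called. Settings that left out 1 cell of a single gate were counted for every comparison, also for those without that gate. Without the library as a block, 8 of the 24 were no longer called. Of 48 ratios from 1 library each, 1 reversed (Ccl8 in Vcan F13a1 C1q macrophages). For Folr2 Cd163 C1q macrophages against monocytes, 5 members were called without the low-count filter and 0 without the block; for Vcan F13a1 C1q macrophages, 3 without the filter, 0 without the block and 0 with DESeq2, which gave no adjusted p for several. For resident macrophages 2 were called without the block, and for neutrophils 4 on the BC2 side. The numbers pair the samples by design, as both groups of a comparison come from the same library. Without the replicate block, calls over all genes went from 343 to 9, 5 to 3, 1153 to 501, 1906 to 735 and 4773 to 3290, in the order of the report. On the BC2 side they went from 343 to 202 and from 4773 to 588, and on the BC3 side from 1906 to 1026 and from 4773 to 2779. Without the filter they went from 343 to 559 and from 5 to 74; in place of 5, DESeq2 gave 11, mixed cells kept 12 and raised thresholds 9. The causes were not tested, beyond the fewer cells of the tag sides.

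Log2 changes that reversed were all of genes not called in that comparison, except Ccl8 of the Vcan F13a1 C1q gate. In Folr2 Cd163 C1q macrophages, Ccl3 was -0.12 at raised thresholds; leaving out 1 library gave Ccl2 -0.32 to 0.20 and Ccl3 -0.09 to 0.24. In Vcan F13a1 C1q macrophages, Ccl2 was 0.07 at raised thresholds and Ccl4 0.02 without the block; leaving out 1 library gave Ccl2 -0.38 to 0.10, Ccl8 -1.64 to 4.59, Ccl4 -1.21 to 0.20 and Ccl24 -0.21 to 1.99. Ccl24 in resident macrophages ranged from -0.51 to 0.76. Ccl8 was 1.53 in dendritic cells with mixed cells kept and -5.22 in neutrophils on the BC2 side.

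Counts of calls from 1 library could not be given, as no residual degrees of freedom remain. Leiden clusters gave both groups only for resident against Folr2 Cd163 C1q macrophages (7 called). The BC2 side left too few resident cells, the BC3 side too few macrophages. Of 126 shares of cells, 101 moved on thinning to 1000 UMIs. Neutrophil depth (1313 UMIs in library 2) limits statements on rare members there, and 27 and 22 resident cells limit those on Ccl8, Ccl7 and Ccl12.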
